A study of Mus musculus with 6 samples.

Results

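The 44 collagen chain genes described here are all genes of the deposited RPKM table (reads per kilobase of transcript, adjusted for library depth) whose symbol is Col, a number, the letter a and a number and nothing more, out of 25220 genes in all. They comprise 11 fibrillar, 6 basement membrane, 6 microfibrillar, 3 network, 9 FACIT (fibril-associated collagens with interrupted helices), 2 multiplexin and 4 transmembrane chains, and 3 others, namely Col7a1 of the anchoring fibrils, Col26a1 and Col28a1. They were measured by bulk poly(A) RNA sequencing in primary myoblasts, the dividing muscle precursor cells, grown from mouse hindlimb muscle in Ham's-F10 medium with 10% horse serum and 2.5 ng/mL bFGF, a growth factor. The 3 Ctrl libraries carried Pax7 +/+; Psat1fl/fl, with both Psat1 alleles floxed and no Cre, and the 3 Psat1 cKO libraries carried Pax7 CRE+/-;Psat1fl/fl. Psat1 encodes phosphoserine aminotransferase, an enzyme of serine synthesis, and Pax7 drives expression in satellite cells, the stem cells of muscle. Since the controls lack the Cre allele, an effect of Cre and of the deletion cannot be told apart. The labels give neither the animals' age nor whether Cre was induced.

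Collagens are secreted proteins in which chains coil around one another in a helix, which needs 1 glycine in every triplet of residues and hydroxylated prolines. Fibrillar collagens form the fibres of connective tissue and type IV collagen the basement membrane around each muscle fibre, under which satellite cells lie. FACIT collagens sit on fibre surfaces, and type VI forms beaded filaments of the muscle matrix. Glycine can be made from serine, the product of the pathway in which Psat1 acts.

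Psat1 stood at 91.8, 93.4 and 100.2 RPKM in Ctrl 1, 2 and 3 against 63.5, 74.7 and 71.8 RPKM in Psat1 cKO 1, 2 and 3, so it was below every control in every cKO library but kept 73.6% of the control mean (limma adjusted p = 0.0225, log2 fold change -0.44 ± 0.07, SE, n = 3 per group). Dropping single libraries ended that call in 5 of 6 fits (adjusted p up to 0.0834). The sources used here do not say which exons are floxed, and transcripts without them would still be counted. The depth, estimated from the smallest steps of the RPKM values, was 33600000, 39300000 and 43100000 reads in the controls and 35100000, 28900000 and 19500000 reads in the cKO libraries, so that 3 reads in a transcript of 1 kb correspond to between 0.0697 and 0.154 RPKM. Myoblast markers were present in every library, with Myod1 between 571.6 and 779.9 RPKM; Psat1 cKO 3 stood apart by markers of endothelial, fat and Schwann cells, given with the marker lists. Ctrl 1 and Psat1 cKO 1 and 2 held Xist RNA and the other libraries RNA of Y-linked genes, a split that is not balanced between the groups.

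The glycine repeat that defines the family is visible in the coding sequences. The following stretches of 54 bases come from the longest unbroken repeat of the 3 chain genes called higher, of Col1a1, the partner of Col1a2, and of Col3a1, a fibrillar chain at a like level in both groups. They are given on the coding strand from the GENCODE M21 transcripts on GRCm38, and the capitals mark the first codon of each triplet, GGN, which encodes the glycine that the helix needs; further GGN codons inside a triplet, as in Col3a1, are left in lower case.
Col1a2 codons 97 to 114: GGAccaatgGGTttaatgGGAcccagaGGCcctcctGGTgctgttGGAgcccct
Col1a1 codons 168 to 185: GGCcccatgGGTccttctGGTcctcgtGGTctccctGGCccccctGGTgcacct
Col3a1 codons 164 to 181: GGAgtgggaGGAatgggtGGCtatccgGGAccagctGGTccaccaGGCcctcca
Col16a1 codons 1006 to 1023: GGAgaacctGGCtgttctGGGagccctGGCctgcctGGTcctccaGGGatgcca
Col6a3 codons 2165 to 2182: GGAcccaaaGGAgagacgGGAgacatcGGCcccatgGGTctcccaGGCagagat
In Col1a2 the repeat ran unbroken for 339 triplets, in Col1a1 for 338 and in Col3a1 for 344. In Col16a1 the longest unbroken run was 52 triplets and in Col6a3 it was 45, since FACIT helices are interrupted and type VI chains consist mostly of globular domains. Glycine made up 27.8% of the codons of Col1a2, 24.6% of those of Col16a1 and 9.07% of those of Col6a3, which was the lowest share among the 44 chains. The chains had a median of 24.2%, against 6.06% over the 20454 genes whose coding sequence could be matched. The chain genes called higher therefore included both a glycine-rich uninterrupted chain and the least glycine-rich chain of the family.

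Of the 44 chain genes, 21 averaged 0.5 RPKM or more across the 6 libraries and were tested with limma on log2(RPKM + 0.5), in a fit over 12251 genes. Col1a2, Col16a1 and Col6a3 rose in Psat1 cKO myoblasts and no chain gene fell, at a Benjamini-Hochberg adjusted p under 0.05 over all genes. These 3 of 21 are 14.3% of the tested chains, where 1.8% of all tested genes were called higher and 0.49% lower. At an unadjusted p under 0.05, 9 chains were higher and 2 lower, against 7.56% and 6.82% of all tested genes. In 8 chains every cKO library lay above every control, and in 0 chains every cKO library lay below, where 10.0% and 10.5% of all tested genes did so. The log2 fold change was above 0 in 14 of the 21 chains, which is 66.7%, and in 45.9% of all tested genes. Its median was 0.21 over the 21 chains and -0.01 over all tested genes. A chain that is low in the controls could pass the level filter only through the cKO libraries, as Col6a3 did, so these shares describe the tested chains and not the family. The count of 3 changed with the libraries used. It was 0 without Psat1 cKO 2, and 1 (Col16a1) without Ctrl 1, Ctrl 2 or Psat1 cKO 3, and also 1 with the Xist and Y-linked split in the fit. Fits without 1 library have less power, and the calls over all tested genes fell in them too. In bulk libraries, fewer cells of a type and less RNA per cell cannot be told apart.

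**Figure D1:**
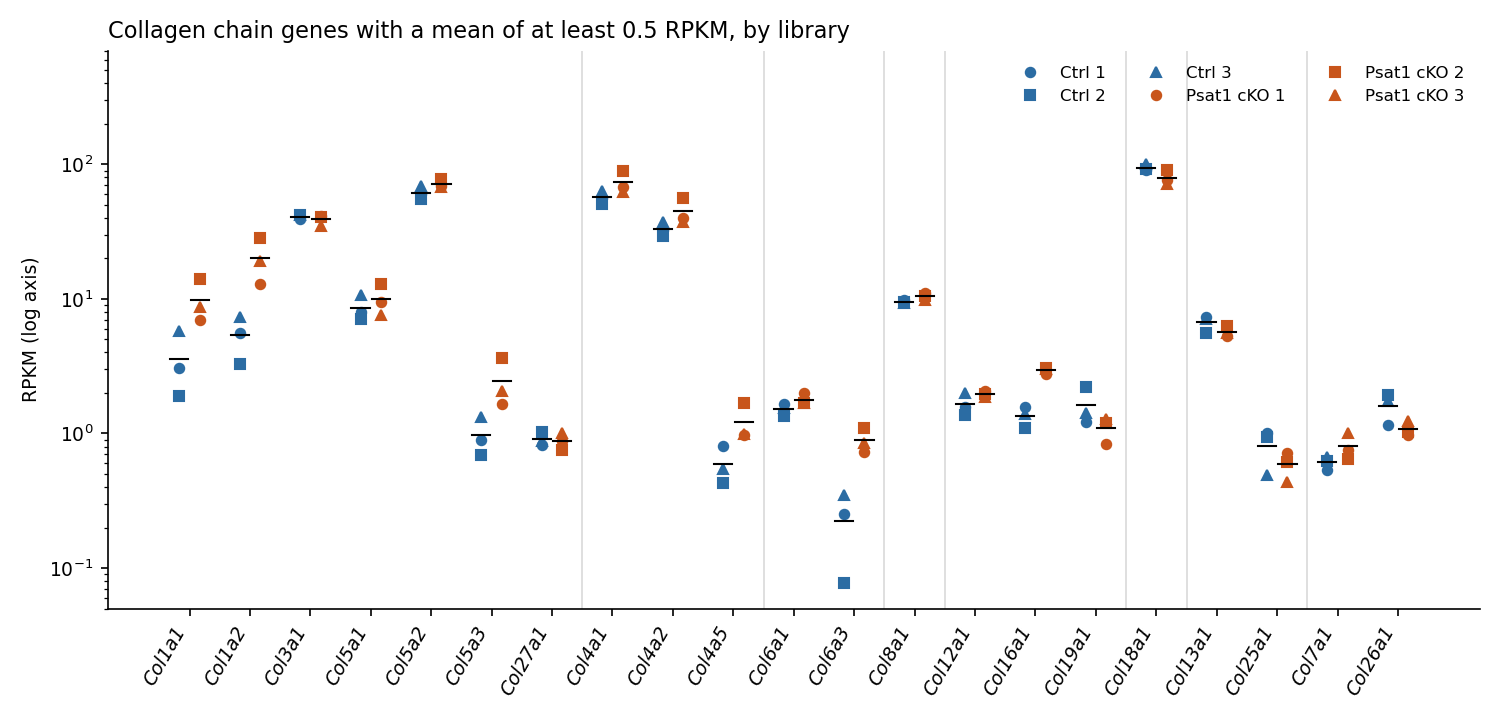
RPKM (log axis) of the 21 collagen chain genes that averaged 0.5 RPKM or more, in each of the 3 Ctrl (blue) and 3 Psat1 cKO (orange) libraries; symbols mark the replicate, black bars the group means and grey lines the borders between collagen classes. Levels run from 0.0771 RPKM for Col6a3 in Ctrl 2 to 100.1 RPKM for Col18a1 in Ctrl 3, and the groups do not overlap for Col1a1, Col1a2, Col5a3, Col4a2, Col4a5, Col6a1, Col6a3 and Col16a1.

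Among the fibrillar chains, the pair of genes for type I collagen, the main fibre-forming collagen of tendon, bone and the muscle's connective tissue, differed most between the groups. Col1a2 (GRCm38 chr6:4505618-4541543) stood at 5.63, 3.30 and 7.31 RPKM in Ctrl 1, 2 and 3 against 13.0, 28.5 and 19.3 RPKM in Psat1 cKO 1, 2 and 3. Every cKO library was above every control, and the libraries of each group themselves spanned a more than 2-fold range. Col1a2 rose by 1.81 ± 0.32 on the log2 scale (SE, n = 3 per group, limma adjusted p = 0.0329). Without 1 library its change lay between 1.52 and 2.08, with the call lost without Ctrl 1, Ctrl 2, Psat1 cKO 2 or Psat1 cKO 3 (adjusted p up to 0.0941). Within the libraries with Xist its log2 difference was 1.69 and within those with Y-linked expression 1.86.

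Its partner Col1a1 (chr11:94936224-94953042) stood at 3.05, 1.89 and 5.76 RPKM in control cells against 6.96, 14.0 and 8.76 RPKM in the cKO libraries. The groups did not overlap, though Ctrl 3 came close to Psat1 cKO 1. The log2 fold change was 1.41 (95% interval 0.58 to 2.24) and missed the threshold (limma adjusted p = 0.107). Without Ctrl 3 it passed, with an adjusted p of 0.0481.

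Type V collagen chains co-assemble with type I and control the width of its fibres, and none of its 3 genes was called. Col5a3, its least abundant chain, stood at 0.897, 0.696 and 1.32 RPKM in control cells against 1.66, 3.64 and 2.08 RPKM in the cKO libraries, with no overlap between the groups. Its log2 fold change of 0.97 (95% interval 0.39 to 1.56) did not pass (limma adjusted p = 0.112). Col5a2, the most abundant fibrillar chain, ranged from 55.0 to 69.2 RPKM in the controls and from 67.4 to 78.3 RPKM in the cKO libraries, and Col5a1 from 7.11 to 10.7 and from 7.61 to 12.9 RPKM. Both overlapped between the groups, with log2 fold changes of 0.22 (limma adjusted p = 0.331) and 0.20 (limma adjusted p = 0.711).

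Col3a1, for type III collagen, which forms thin fibres together with type I, stood at 39.0, 42.3 and 41.8 RPKM in control cells against 41.6, 40.6 and 34.8 RPKM in the cKO libraries. The groups overlapped, with Psat1 cKO 3 the lowest. Its log2 fold change of -0.08 had a 95% interval of -0.25 to 0.10 (limma adjusted p = 0.703). That interval and the one of Col1a2, which ran from 1.06 to 2.55, did not overlap. Col27a1, a fibrillar chain known from cartilage, lay between 0.75 and 1.03 RPKM in all 6 libraries. The 4 other fibrillar chains, Col2a1, Col11a1, Col11a2 and Col24a1, reached at most 0.407 RPKM in any library and were not tested.

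To set the start regions of 2 chain genes that rose beside that of 1 that did not pass, the sequences below give the 250 bases before the annotated start of Col1a2, Col16a1 and Col3a1 (RefSeq, GRCm38.p6, plus strand, 5′ to 3′). Capitals mark CCAAT (the CCAAT box), GGGCGG (the GC box) and TATAAA (the TATA box), each searched on both strands.
Col1a2, chr6:4505368-4505617: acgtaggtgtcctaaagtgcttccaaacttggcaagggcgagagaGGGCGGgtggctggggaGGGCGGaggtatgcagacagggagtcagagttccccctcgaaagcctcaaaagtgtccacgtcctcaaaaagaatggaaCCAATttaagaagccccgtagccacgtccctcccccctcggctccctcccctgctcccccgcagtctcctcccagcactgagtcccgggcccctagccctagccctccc
Col16a1, chr4:130047590-130047839: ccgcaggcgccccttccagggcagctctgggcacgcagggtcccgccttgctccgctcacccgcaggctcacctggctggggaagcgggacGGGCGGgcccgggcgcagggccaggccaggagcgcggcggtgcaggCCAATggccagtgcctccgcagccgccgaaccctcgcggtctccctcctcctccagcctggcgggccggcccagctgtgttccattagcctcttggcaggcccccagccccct
Col3a1, chr1:45311288-45311537: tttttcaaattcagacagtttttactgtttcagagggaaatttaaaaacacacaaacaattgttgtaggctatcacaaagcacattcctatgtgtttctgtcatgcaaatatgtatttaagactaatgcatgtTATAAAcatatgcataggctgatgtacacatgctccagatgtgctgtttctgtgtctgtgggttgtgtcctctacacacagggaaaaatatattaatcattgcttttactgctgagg
The Col1a2 stretch held 2 GC boxes and 1 CCAAT box, that of Col16a1 held 1 of each, and that of Col3a1 held 1 TATA box and no letters of the others. RefSeq windows of 250 bases before to 50 after the start were matched for 35 of the 44 chains (38 windows). GGGCGG occurred in 60.5% of these chain windows and in 35.7% of all 32851 windows, CCAAT in 34.2% and 37.4%, and TATAAA in 13.2% and 13.6%. The E-box CANNTG, bound by myogenic factors, occurred in 52.6% of chain windows and 72.3% of all, and the AP-1 motif TGANTCA in 2.63% and 7.81%. The window of Col6a3, the other chain called higher, held none of these motifs. Windows of the uncalled Col4a1, Col4a2, Col7a1 and Col25a1 held both CCAAT and GGGCGG. The 3 stretches printed therefore do not show a difference between called and uncalled chains. These are matches of letters and say nothing of which factors were bound.

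**Figure D2:**
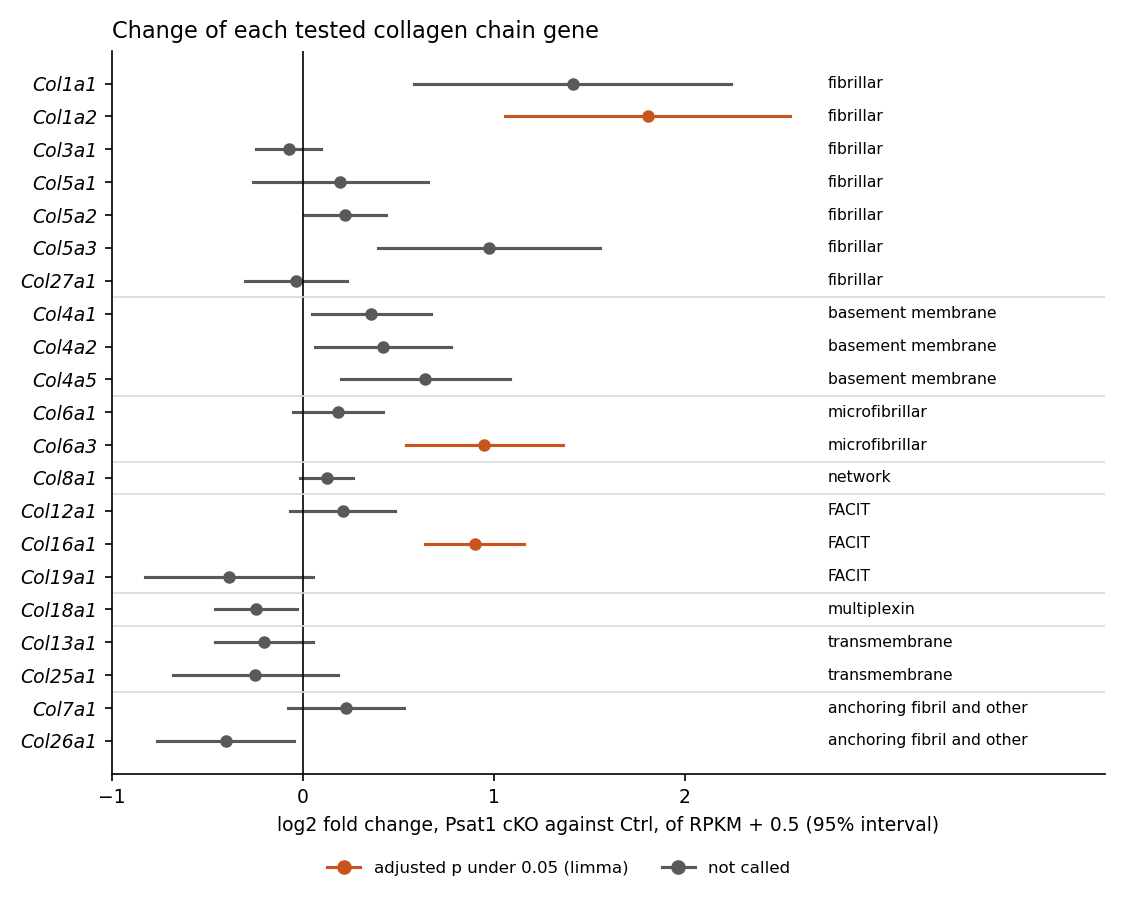
Log2 fold change of RPKM + 0.5, Psat1 cKO against Ctrl, for each tested collagen chain gene, as points with 95% intervals from limma (3 libraries per group); orange marks an adjusted p under 0.05. Intervals of Col1a2, Col6a3 and Col16a1 lie well above 0, those of the uncalled Col1a1, Col5a2, Col5a3, Col4a1, Col4a2 and Col4a5 lie above 0 too, those of the uncalled Col18a1 and Col26a1 lie below 0, and the point of Col3a1 is at -0.08.

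FACIT collagens attach to the surface of fibres. Col16a1 (chr4:130047817-130099277), which encodes a FACIT chain, had the lowest adjusted p of the 21 tested chains. It stood at 1.58, 1.09 and 1.41 RPKM in Ctrl 1, 2 and 3 against 2.79, 3.06 and 3.01 RPKM in Psat1 cKO 1, 2 and 3, with the groups well apart and the cKO libraries close together. Col16a1 rose by 0.90 ± 0.11 on the log2 scale (SE, n = 3 per group, limma adjusted p = 0.0133). Leaving out 1 library gave changes between 0.79 and 0.99 and lost the call without Psat1 cKO 2 (adjusted p = 0.0517). The log2 difference was 0.72 within the libraries with Xist and 1.01 within those with Y-linked expression. In the authors' deposited table it was the 1 chain gene with a q under 0.05 (ratio 2.19, q = 0.0441), where 0.376% of the 21525 genes with a q passed upward; that table gave Col1a2 a ratio of 3.75 with q = 0.0970.

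Col12a1, a FACIT chain that decorates type I fibres and is made by muscle and tendon cells, ranged from 1.38 to 2.02 RPKM in the controls and from 1.86 to 2.08 RPKM in the cKO libraries. It did not pass (log2 fold change 0.21, limma adjusted p = 0.483). Col19a1, a FACIT chain of basement membrane zones, stood at 1.22, 2.23 and 1.43 RPKM against 0.838, 1.19 and 1.29 RPKM, with overlapping groups and a log2 fold change of -0.39 (limma adjusted p = 0.416). The other 6 FACIT chains reached at most 0.222 RPKM and were not tested, among them Col14a1, which like Col12a1 binds type I fibres.

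Type VI collagen is built from Col6a1 and Col6a2 together with, usually, Col6a3 and surrounds muscle fibres and satellite cells. Col6a3 (chr1:90766860-90844001) stood at 0.252, 0.0771 and 0.348 RPKM in control cells against 0.726, 1.10 and 0.849 RPKM in the cKO libraries. The groups did not overlap and every level was low, from about 31 reads in Ctrl 2 to about 322 in Psat1 cKO 2 by the depth estimate. Col6a3 rose by 0.95 ± 0.18 on the log2 scale of RPKM + 0.5 (SE, n = 3 per group, limma adjusted p = 0.0389), a scale that shrinks changes of genes this low; the ratio of its group means was 3.96. The call depended on that scale, since it was lost with a pseudocount of 0.1 (adjusted p = 0.0652) or 0.001 (adjusted p = 0.106) and with quantile normalization (adjusted p = 0.0682). In each of the 5 fits without 1 library in which it was still tested the call was lost (adjusted p up to 0.109), and without Psat1 cKO 2 its mean fell under the filter. Its log2 difference was 0.90 within the libraries with Xist and 0.95 within those with Y-linked expression.

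Col6a1 ranged from 1.34 to 1.67 RPKM in the controls and from 1.68 to 2 RPKM in the cKO libraries, which did not overlap but differed little (log2 fold change 0.18, limma adjusted p = 0.476). Col6a2, the obligate partner of both, reached at most 0.0803 RPKM, which is an estimated 3 to 10 reads per library, and cannot be compared between the groups at this depth. Col6a4, Col6a5 and Col6a6, which can replace Col6a3, reached at most 0.0124 RPKM.

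Type IV collagen, the network of basement membranes, was among the most abundant collagens, and none of its genes was called. Col4a1 stood at 56.5, 51.1 and 63.0 RPKM in control cells against 68.5, 89.8 and 62.6 RPKM in the cKO libraries, so Psat1 cKO 3 lay within the controls. Col4a2 stood at 32.6, 29.2 and 37.1 RPKM against 40.3, 56.4 and 37.5 RPKM, with a gap between Ctrl 3 and Psat1 cKO 3 of under 1 RPKM. The log2 fold changes were 0.36 (95% interval 0.05 to 0.67, limma adjusted p = 0.280) and 0.42 (95% interval 0.06 to 0.77, limma adjusted p = 0.265). Both genes lie head to head on chromosome 8 with 21 bases between their annotated starts, on opposite strands, and their exons share 22 bases, which is 0.295% of the exon bases of Col4a1.

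Col4a5, an X-linked type IV chain known from kidney and smooth muscle basement membranes, stood at 0.804, 0.425 and 0.548 RPKM in control cells against 0.977, 1.67 and 0.992 RPKM in the cKO libraries. The groups did not overlap, and the log2 fold change of 0.64 (95% interval 0.20 to 1.08) did not pass (limma adjusted p = 0.170). Within the libraries with Xist its log2 difference was 0.46 and within those with Y-linked expression 0.60. Col4a3, Col4a4 and Col4a6 reached at most 0.0519 RPKM.

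Col18a1, a basement membrane collagen that carries heparan sulfate and gives rise to endostatin, had the highest level of the family. It stood at 90.8, 92.1 and 100.1 RPKM in control cells against 76.4, 91.5 and 71.6 RPKM in the cKO libraries, with Psat1 cKO 2 inside the range of the controls. Its log2 fold change of -0.25 (95% interval -0.46 to -0.03) did not pass (limma adjusted p = 0.275). Col15a1, the related chain of muscle and capillary basement membranes, was under the filter, at 0.117, 0.0667 and 0.165 RPKM against 0.229, 0.616 and 0.356 RPKM; its groups did not overlap. In the authors' deposited table its ratio was 3.37 with q = 0.286.

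Of the remaining classes no member was called. Col8a1, a short network-forming chain of vessel walls, lay between 9.35 and 9.88 RPKM in the controls and between 9.79 and 11.05 RPKM in the cKO libraries. The transmembrane chains Col13a1, found at the neuromuscular junction, and Col25a1, needed for motor innervation of muscle, had log2 fold changes of -0.21 (limma adjusted p = 0.456) and -0.25 (limma adjusted p = 0.605). Col7a1 and Col26a1 had log2 fold changes of 0.22 (limma adjusted p = 0.497) and -0.40 (limma adjusted p = 0.288).

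The 23 chains that were not tested reached at most 0.616 RPKM in any library. Among them Col11a1, a fibrillar chain known from cartilage, ranged from 0.0723 to 0.126 RPKM in the controls and from 0.180 to 0.285 RPKM in the cKO libraries. In the authors' deposited table the ratio was above 1 for 33 chains and below 1 for 11. Both counts include chains with almost no reads. Col6a5, at 0.0055 RPKM in Psat1 cKO 3 and at 0 in every other library, had a ratio of 1.87. Col9a1, at most 0.0215 RPKM in any library, had a ratio of 0.298. No share of all genes with a ratio above 1 stands beside these counts, and a shift of the whole family cannot be read from them. Col1a1, Col1a2, Col4a5, Col5a3 and Col16a1 were listed in 52 of the 230 terms enriched among the authors' higher genes. The term extracellular matrix organization held all 5 of these chains among its 27 genes (log10 p -19.39, the authors' deposited table).

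The amount and the make-up of the collagen message are described next, with shares that were chosen after the levels of their chains were seen. The summed level of all 44 chains was 326.8, 310.8 and 365.7 RPKM in the controls and 358.9, 448.9 and 342.9 RPKM in the cKO libraries, so the groups overlapped (exact permutation test, two-sided, p = 0.3, adjusted 0.3 over 5 such values). Type I chains made up 2.65%, 1.67% and 3.57% of that sum in the controls and 5.56%, 9.48% and 8.18% in the cKO libraries. Col18a1 made up 27.8%, 29.6% and 27.4% against 21.3%, 20.4% and 20.9%. Neither share overlapped between the groups, the former being higher and the latter lower in the cKO libraries.

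With 3 libraries against 3 the exact permutation test cannot go below 0.1, which it gave for both shares and for that of Col4a1 and Col4a2 together (adjusted 0.167 over the 5 values). Col4a1 and Col4a2 made up 25.9% to 27.4% of the sum in the controls and 29.2% to 32.6% in the cKO libraries. The share of type I stayed small in all libraries, and the 5 highest chains, Col18a1, Col5a2, Col4a1, Col3a1 and Col4a2, made up 85.1% to 86.8% in the controls and 79.4% to 82.6% in the cKO libraries.

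**Figure D3:**
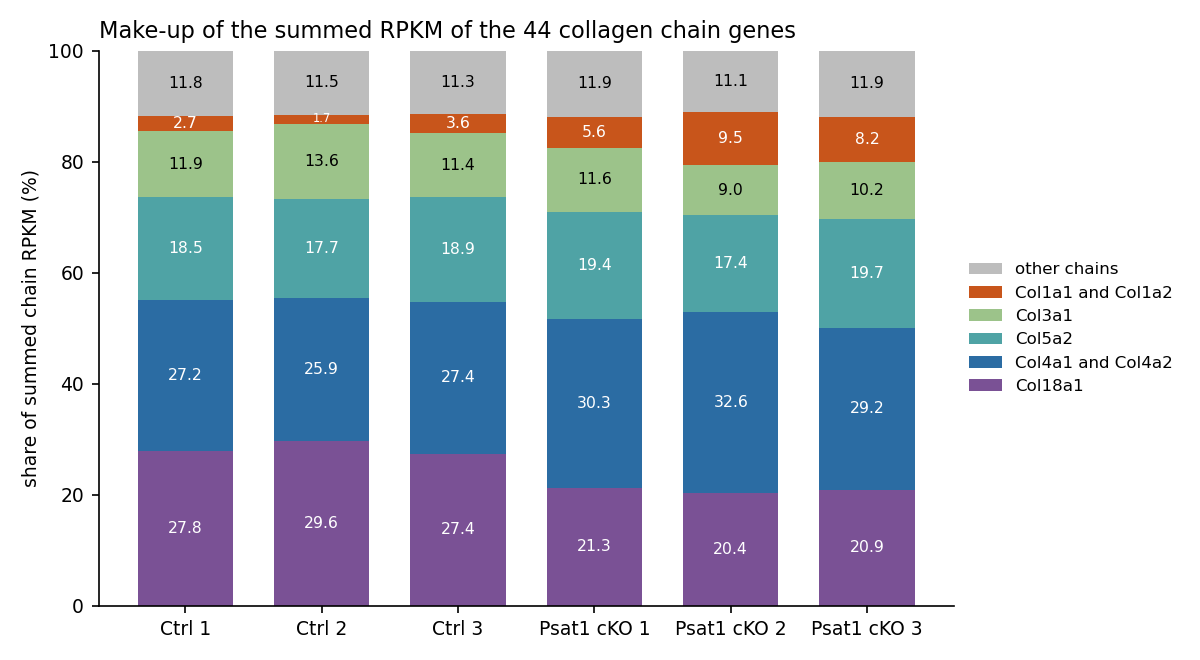
Share (%) of each collagen chain gene or pair in the summed RPKM of the 44 chains, as stacked bars, 1 bar per library. The orange segment, type I, is between 1.67% and 3.57% in the 3 Ctrl bars and between 5.56% and 9.48% in the 3 Psat1 cKO bars, and the purple segment, Col18a1, is smaller in each Psat1 cKO bar than in each Ctrl bar.

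Chains that assemble in a fixed ratio can be compared within a library, where the scaling to depth cancels. Ratios of per-length levels were compared for the 4 partner pairs in which both genes were tested. Col4a1/Col4a2 stood at 1.73, 1.75 and 1.70 in the controls and at 1.70, 1.59 and 1.67 in the cKO libraries, where type IV protein holds more Col4a1 than Col4a2 chains. Its log2 difference was -0.06 (exact permutation p = 0.2, adjusted 0.267 over the 4 pairs).

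Col1a1/Col1a2 stood at 0.542, 0.574 and 0.788 in the controls and at 0.536, 0.491 and 0.454 in the cKO libraries, although type I protein holds more Col1a1 than Col1a2 chains. The ratio was lower in every cKO library, by little for Ctrl 1 against Psat1 cKO 1 (log2 difference -0.35, exact permutation p = 0.1, the smallest it can give, adjusted 0.2). Col5a1/Col5a2 lay between 0.113 and 0.164 in all libraries, with a log2 difference of -0.02 (exact permutation p = 1). Col6a3/Col6a1 stood at 0.151, 0.0574 and 0.226 in the controls and at 0.363, 0.659 and 0.504 in the cKO libraries, a log2 difference of 1.98 (exact permutation p = 0.1, adjusted 0.2); this pair was included only because Col6a3 passed the level filter through the cKO libraries, so its difference is a description.

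**Figure D4:**
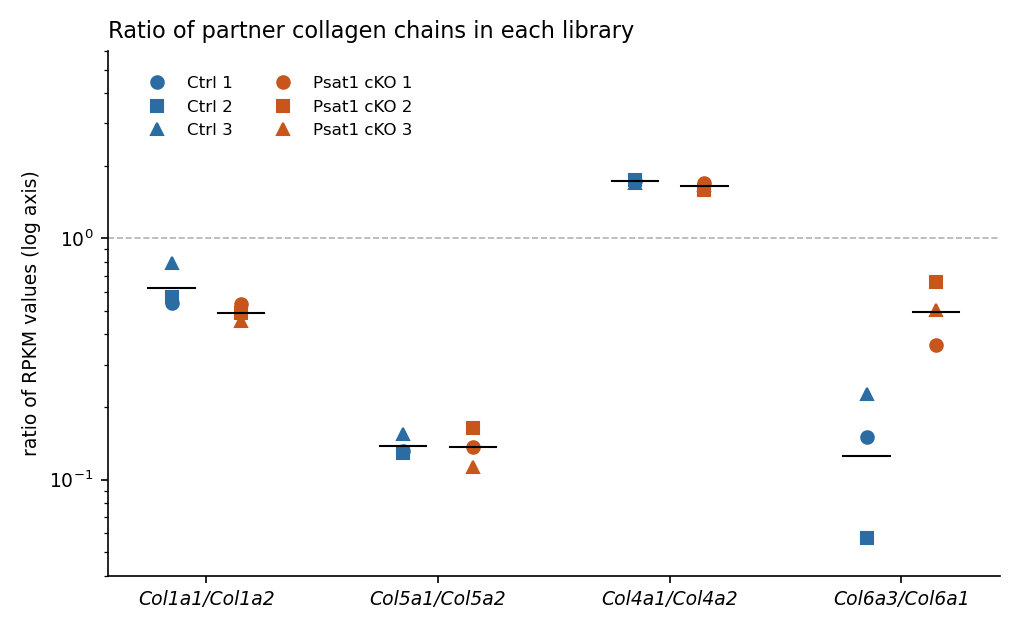
Ratio of RPKM values (log axis) of 4 pairs of partner collagen chains, with 1 point per library and black bars at group means; the dashed line marks equal levels. Col4a1/Col4a2 lies between 1.59 and 1.75 in all 6 libraries, while Col6a3/Col6a1 has a mean of 0.125 in Ctrl and 0.494 in Psat1 cKO.

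The genes that make, process, bind and degrade collagen were read from 5 lists with 64 genes in the table, of which 53 were tested, 7 rose and 1 fell, where 1.8% of all tested genes were called higher and 0.49% lower. Of 20 tested enzymes and chaperones of chain synthesis, folding and secretion, 0 rose and 1 fell. At an unadjusted p under 0.05, 4 of these 20 were higher and 2 lower, against 7.56% and 6.82% of all tested genes, and their median log2 fold change was 0.05. Serpinh1, the collagen chaperone HSP47, had group means of 315.7 and 331 RPKM, and P4ha1, a prolyl 4-hydroxylase that stabilises the helix, had a log2 fold change of 0.05 (limma adjusted p = 0.799). P3h2, a prolyl 3-hydroxylase that acts on type IV collagen, was at 2.38, 2.26 and 2.31 RPKM in control cells against 1.64, 1.47 and 1.43 RPKM in the cKO libraries. It fell by 0.49 on the log2 scale (limma adjusted p = 0.0259), a call lost in 5 of 6 fits without 1 library.

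Outside the cell, propeptides are cut off and lysyl oxidases cross-link the fibres, and here 4 of 11 tested genes rose and 0 fell, with a median log2 fold change of 0.66. Tll1, a protease of the BMP1 family that removes the C-terminal propeptide, was at 1.17, 0.470 and 0.940 RPKM in control cells against 3.25, 4.53 and 3.21 RPKM in the cKO libraries and rose by 1.64 ± 0.21 (SE, log2, limma adjusted p = 0.0138). Lox, the main lysyl oxidase, was at 5.90, 3.41 and 5.81 RPKM against 11.4, 21.5 and 11.5 RPKM and rose by 1.44 ± 0.27 (limma adjusted p = 0.0417). Loxl3 rose by 0.85 (limma adjusted p = 0.0192) and Loxl4 by 0.95 (limma adjusted p = 0.0268), while Loxl1 and Loxl2 had log2 fold changes of 0.66 and 1.13 that did not pass (limma adjusted p = 0.0855 and 0.0843). Each of these 5 lysyl oxidase genes was higher in every cKO library than in every control, which held for 10.0% of all tested genes.

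These calls, too, were lost in fits without 1 library. The call of Tll1 was lost without Psat1 cKO 2 (adjusted p = 0.0517), that of Lox in all 6 fits without 1 library, that of Loxl4 in 5 and that of Loxl3 in 4. Bmp1, the main C-terminal propeptide protease, had a log2 fold change of 0.15 (limma adjusted p = 0.253). Of the BMP1 enhancers, Pcolce had a log2 fold change of 0.49 (limma adjusted p = 0.0559) and Pcolce2 of -0.41 (limma adjusted p = 0.0699). Pcolce passed with median-of-ratios scaling (adjusted p = 0.0461), with quantile normalization (adjusted p = 0.0407) and when Psat1 cKO 3 was left out (adjusted p = 0.0471).

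Among receptors, 1 of 5 tested genes rose and 0 fell. Itgb1, the beta subunit that all collagen-binding integrins share, was called with a log2 fold change of 0.34 (limma adjusted p = 0.0327), lost in all 6 fits without 1 library, and its group means were 172.4 and 217.9 RPKM. The alpha subunits of the list were far lower. Itga1, Itga10 and Itga11 reached at most 0.555 RPKM and were not tested. Itga2 reached at most 0.971 RPKM and was not called (limma adjusted p = 0.139). Its control mean was 0.317 RPKM, so it passed the level filter only through the cKO libraries. Mrc2, an uptake receptor for collagen fragments, had a log2 fold change of 0.42 (limma adjusted p = 0.0979). The collagen receptor kinases Ddr1 and Ddr2 did not pass.

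The list for collagen degradation holds both proteases and their inhibitors. Of its 8 tested genes 2 rose and 0 fell, where 1.8% of all tested genes were called higher and 0.49% lower. The tested genes of the list had a median log2 fold change of 0.65. Of its 5 tested proteases 1 rose, and of its 3 inhibitors, Timp1, Timp2 and Timp3, 1 rose. Ctsk, cathepsin K, a protease that cuts the collagen helix, was at 0.786, 0.336 and 0.643 RPKM in control cells against 2.07, 2.18 and 2.03 RPKM in the cKO libraries and rose by 1.28 ± 0.16 (SE, log2, limma adjusted p = 0.0133). Timp1, an inhibitor of matrix metalloproteinases, rose by 0.66 (limma adjusted p = 0.0321). The call of Ctsk was lost without Psat1 cKO 2 (adjusted p = 0.0517), and that of Timp1 in 4 of 6 such fits. The gelatinases Mmp2 and Mmp9 had log2 fold changes of 0.64 and 0.77 that did not pass (limma adjusted p = 0.0620 and 0.0762). Mmp9, with a control mean of 0.300 RPKM, passed the level filter only through the cKO libraries, so its place in the median is a description.

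Of 9 genes for glycine and proline supply, all of them tested, limma called 0, with 0 higher and 1 lower at an unadjusted p under 0.05 and a median log2 fold change of -0.11. Shmt2, the mitochondrial enzyme that makes glycine from serine, had group means of 91.5 and 83.3 RPKM (log2 fold change -0.13, limma adjusted p = 0.400).

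**Figure D5:**
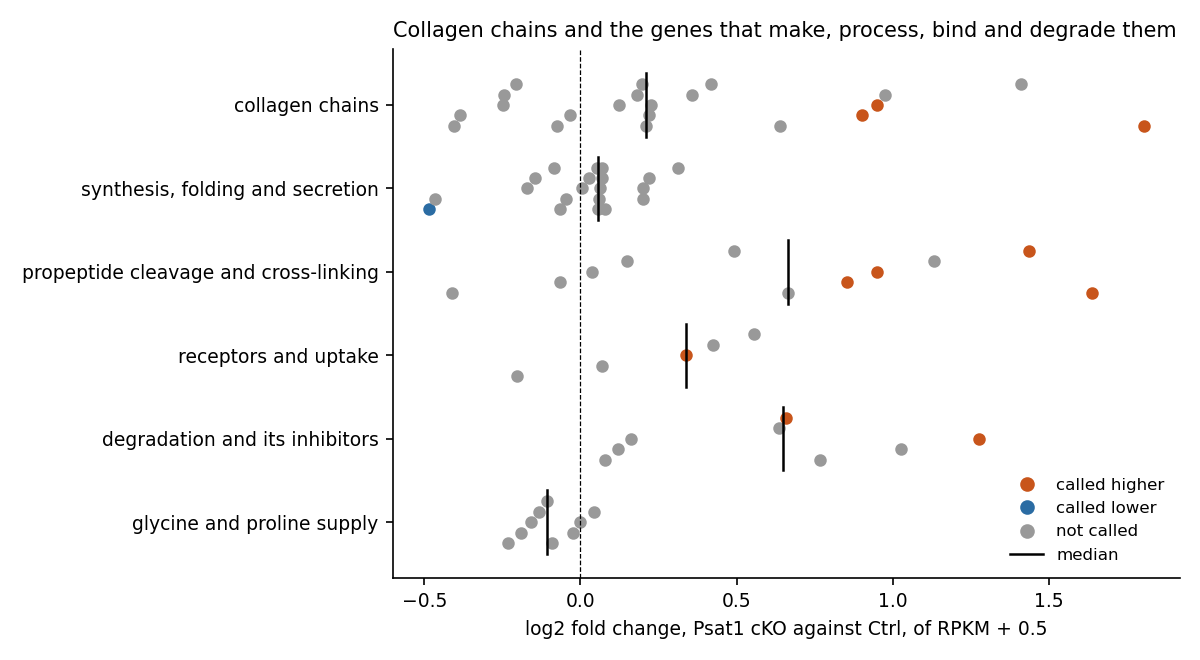
Log2 fold change of RPKM + 0.5, Psat1 cKO against Ctrl, of the 21 tested collagen chains and the tested genes of 5 collagen pathway lists; each point is 1 gene, black bars are medians, orange and blue mark genes called higher and lower (limma adjusted p under 0.05). The medians of cleavage and cross-linking (0.66) and of degradation with its inhibitors (0.65) lie above that of synthesis and folding (0.05).

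Markers of other cell types that a muscle culture can hold were read beside these results. Fibro-adipogenic progenitors are connective tissue cells of muscle that make type I and type VI collagen. Of 7 tested among 12 of their markers, 4 rose, namely Pdgfra, Cd34, Smoc2 and Mfap5, and the summed level of the 12 was between 37.3 and 47.4 RPKM in the controls and between 69.0 and 74.0 RPKM in the cKO libraries. The largest part of that sum was Gsn, at 26.3 to 34.9 RPKM in the controls and 31.9 to 44.7 RPKM in the cKO libraries, which was not called. Cd34 came next, at 4.71 to 7.03 against 13.2 to 21.6 RPKM, so the sum is no measure of the number of such cells. These 4 of 7 stand beside the 1.8% of all tested genes called higher. Ly6a was tested and not called, with group means of 1.57 and 1.83 RPKM and overlapping groups (limma adjusted p = 0.659). Clec3b, with group means of 0.0602 and 0.0496 RPKM, and Apod, with 0.269 and 0.383 RPKM, were not tested and overlapped too. Without 1 library the call was lost in 5 of 6 fits for Mfap5, in 4 for Smoc2, in 1 for Cd34 (without Ctrl 2, adjusted p = 0.0523) and in 0 for Pdgfra. Pdgfra, their defining receptor, was at 0.510, 0.327 and 0.376 RPKM in control cells against 1.63, 2.87 and 2.71 RPKM in the cKO libraries, so it passed the level filter through the latter. Their defining marker Dpt was at 0 in 5 libraries and at 0.0299 RPKM in Psat1 cKO 3, Pi16 was at 0 in 5 and at 0.0126 RPKM in Psat1 cKO 1, and Lum reached at most 0.123 RPKM. The matrix proteoglycan genes of the list were higher in every cKO library than in every control, Lum with group means of 0.0251 and 0.0951 RPKM and Dcn with 0.578 and 1.98 RPKM (limma log2 fold change of Dcn 1.16, not called).

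Of 7 tested among 10 smooth muscle and pericyte markers, Tagln and Mcam rose, where 1.8% of all tested genes were called higher. Without 1 library the call was lost in 4 of 6 fits for Tagln and in 1 for Mcam. The summed level of the 10 was between 176.4 and 322.4 RPKM in the controls and between 279.9 and 368.0 RPKM in the cKO libraries. Acta2, which was not called, was the largest part of it in every library. Of the tenocyte markers 0 of 2 tested were called by limma, 0 were under an unadjusted p of 0.05, and Scx lay between 88.1 and 139.7 RPKM while Tnmd reached at most 0.0213 RPKM. Of 8 myoblast and satellite cell markers 2 fell, Pax7 and Myf5, where 0.49% of all tested genes were called lower. Without 1 library the call was lost in 2 of 6 fits for Myf5 and in 0 for Pax7. The cKO genotype names Cre with Pax7 and the controls are Pax7 +/+, so an effect of that allele on Pax7 RNA cannot be told apart. The summed level of all 8 markers was between 1548 and 1733 RPKM in the controls and between 1286 and 1470 RPKM in the cKO libraries. Endothelial, immune, adipocyte and Schwann cell lists had 9 tested markers, and 0 were called by limma (1 higher and 2 lower at an unadjusted p under 0.05). Psat1 cKO 3 stood apart in several of them. Emcn was at 6.68 RPKM there and between 1.05 and 2.15 RPKM elsewhere, Fabp4 at 5.40 against 0.416 to 1.26 RPKM, Pecam1 at 1.52 against 0.348 to 0.845 RPKM and Sox10 at 1.49 against 0.242 to 0.571 RPKM. Without Psat1 cKO 3, Col16a1 was the 1 chain gene still called, as it also was without Ctrl 1 or Ctrl 2. The log2 fold change of Col1a2 was 1.81 without Psat1 cKO 3 and 1.81 with all libraries. The part of these cell types in the collagen results was not tested.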

How the data were processed

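Per the labels' protocols, Trizol RNA (500 ng) went into NEBNext Ultra II libraries. Tools listed in the submitters' processing notes, without role or order, are TopHat2 2.1.1, Trim Galore 0.6.6 and Partek, with build mm10; which annotation and counting were used is not given in the sources used here. RPKM values per gene and library were deposited by the authors, with a table of their comparison with ratio, fold change, p-values and q-values, and log2 means per the file headers. The authors' deposited term tables give log10 p and log10 q. Other columns of the authors' deposited term tables, such as the score, percent and count of genes per term, were not used.

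Genes averaging 0.5 RPKM or more were fitted with limma 3.58.1 (R 4.3.3; lmFit, eBayes with trend) on log2(RPKM + 0.5), two-sided, with genotype alone, and Benjamini-Hochberg adjustment over all 12251 genes. Every tested chain is named, and pathway and marker genes by call or role. Ratios and shares used exact permutation tests in scipy 1.17.1. The scripts were tested on simulated data. Alternatives were pseudocounts of 0.1, 1 and 0.001, filters, median-of-ratios and quantile scaling, no variance trend, a replicate block, the Xist split and leaving out each library. Depth was estimated from steps in the RPKM values of genes with known length, where 41.2% to 47.8% of values came out as whole reads within 1%, so no count test was run. The members and lists were chosen with earlier results of these data known. Nothing says that replicates are separate animals, so p-values may measure technical spread, although Xist and Y-linked expression differed within each group.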

Additional observations from a re-analysis of the deposited data

Results flagged for a closer look

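Col3a1, for type III collagen, had differences of opposite sign on the sides of the Xist split, although it was not called. Both Psat1 cKO libraries with Xist expression (41.6 and 40.6 RPKM) lay above Ctrl 1 (39.0 RPKM), a log2 difference of 0.0743, while Psat1 cKO 3 (34.8 RPKM) lay below both controls with Y-linked expression (42.3 and 41.8 RPKM), a log2 difference of -0.27. The sign also differed for Col5a1, by more (log2 difference 0.45 and -0.19), but its libraries overlapped on the Y-linked side. Each side has 1 library in an arm, and the difference between the sides was not tested.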

How the results depend on the processing

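Col16a1 kept its direction in all 16 alternatives and its call in 14. Without a filter on low values limma called 0 chain genes, 0 pathway genes higher and 0 lower, and 1 and 3 of all genes. A filter at 2 RPKM left 0 pathway genes called lower, since P3h2 was no longer tested, and without a variance trend 4 pathway genes were higher. Whether the replicate numbers pair the libraries could not be told. Correlations of same-numbered deviations were 0.20, -0.03 and 0.17. Ctrl 1 and Ctrl 3, but not Ctrl 2, correlated best with the cKO library of their own number. The fit with a replicate block called 1 chain (Col16a1) and 3 pathway genes higher, and 121 of all genes lower. The Xist and Y-linked split gave 1 chain (Col16a1) and 3 pathway genes higher, and Col27a1 turned to 0.020. The cause was not tested.

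Without 1 library, 0 to 3 chains and 0 to 5 pathway genes were called higher and 0 to 1 pathway genes lower, each count being 0 without Psat1 cKO 2, and 49 to 173 of all genes were higher and 12 to 55 lower. Values that changed sign in such fits were all uncalled. Log2 fold changes ran from -0.12 to 0.0028 for Col3a1, from -0.10 to 0.034 for Col27a1, from -0.20 to 0.13 for Scx, from -0.043 to 0.39 for Acta2, from -0.24 to 0.87 for Emcn and from -0.0045 to 1.34 for Fabp4, and the log2 difference of Col5a1/Col5a2 from -0.15 to 0.12. The shares of the chain sum, chosen after the data were seen, kept their direction without any 1 library, from 1.30 to 1.84 on the log2 scale for type I and from -0.46 to -0.40 for Col18a1. Depth limits the 23 untested chains, and an RPKM scale cannot show a change of all RNA.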

Other observations

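Genes outside the family that also encode collagen-like glycine repeats or are named for collagen domains were read from a list of 27, chosen with the chains' results known. Of 8 tested, limma called 0, and their median log2 fold change was 0.19. At an unadjusted p under 0.05, 4 were higher and 0 lower, against 7.56% and 6.82% of all tested genes. Among the 4 was Emilin2, whose control mean was 0.485 RPKM, so it passed the level filter only through the cKO libraries. Emilin2, for an elastic-fibre-associated glycoprotein, was at 0.674, 0.279 and 0.503 RPKM in Ctrl 1, 2 and 3 and at 0.752, 1.65 and 1.61 RPKM in Psat1 cKO 1, 2 and 3 (log2 fold change 0.88, limma adjusted p = 0.134). C1qtnf3, a secreted C1q-like protein, was the most abundant of them, at 71.6, 60.6 and 94.6 RPKM against 79.4, 51.9 and 42.2 RPKM, with overlapping groups (log2 fold change -0.41, limma adjusted p = 0.491). Colq, the collagen tail of acetylcholinesterase at the neuromuscular junction, had a log2 fold change of -0.32 (limma adjusted p = 0.514).

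The glycine codons that collagen messages contributed to the mRNA pool, as RPKM times glycine codons over the matched genes, were 1.12%, 1.06% and 1.23% of all glycine codons in the controls and 1.27%, 1.57% and 1.22% in the cKO libraries. Psat1 cKO 3 lay within the controls, and the groups did not separate (log2 difference 0.25, exact permutation p = 0.2, adjusted 0.25 over 5 values). Of the 51 coding exons of Col1a1, 21 are 54 bases long, the length of 6 glycine triplets, and of the 52 of Col1a2 there are 24, against 3 of the 43 of Col6a3.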
